A study of Mus musculus with 48 samples.

Results

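The TCRβ repertoire of CD8+ T cells was compared between bilateral Lewis lung carcinoma (LLC) tumors and their draining lymph nodes (dLNs), using 24 of the 48 libraries of the series. All samples came from 4 female C57BL/6 mice (C57BL/6J in the study's methods) of 8 weeks, numbered 5 to 8, which carried LLC, a transplantable mouse lung carcinoma line, under the skin on both sides of the back and were sampled on day 13 after inoculation. Each of the 8 tumors was divided into 2 fragments that gave a CD8+ library each (16 tumor libraries), and each of the 8 dLNs gave 1 CD8+ library. Cells of both tissues were sorted as CD8+ CD4- TCRβ+ cells outside the blood vessels, that is, not stained by antibody given intravenously, and free of the lineage markers CD11b, B220 and NK1.1. Ter119 was a further lineage marker for tumor cells and Ly6G for dLN cells. Cells of the dLN also had to pass a gate for high CD44, a marker of antigen-experienced T cells, which tumor cells did not. The tissue and these gates therefore cannot be told apart in any comparison below. These libraries hold TCRβ transcripts and no marker genes, so that the sorted cell type could not be checked against other transcripts.

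The TCR β chain is assembled in each developing T cell by joining 1 variable (TRBV), 1 diversity (TRBD) and 1 joining (TRBJ) segment. Bases are trimmed and added at random at the junctions, and the resulting complementarity determining region 3 (CDR3) is the part of the chain that contacts the presented peptide, while the V segment also encodes the loops that mainly touch the MHC molecule. A T cell that recognizes antigen divides, and its progeny share the same rearrangement, so that a clone of T cells is identified here by its V and J segments together with the nucleotides of its CDR3. Usage of a segment can therefore be measured by clones, counting each distinct clone once, which describes the set of receptors that is present, or by reads, weighting each clone by its frequency, which also reflects clonal expansion. Both measures are given throughout as a percent of the repertoire.

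The leading clones of the tumors illustrate the items that were counted. For each mouse, the clone that was most frequent when its tumors were averaged is printed below as CDR3 nucleotides from 5′ to 3′. Capitals mark the bases between the end of the V segment and the start of the J segment, that is, the bases added at the junctions and, where one was assigned, the D segment. No D segment was assigned to the clone of mouse 5.
mouse 5, TRBV26/TRBJ1-3: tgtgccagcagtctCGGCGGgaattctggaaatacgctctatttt
mouse 6, TRBV26/TRBJ1-6: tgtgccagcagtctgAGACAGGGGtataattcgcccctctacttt
mouse 7, TRBV20/TRBJ1-1: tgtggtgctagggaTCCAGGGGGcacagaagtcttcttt
mouse 8, TRBV26/TRBJ1-5: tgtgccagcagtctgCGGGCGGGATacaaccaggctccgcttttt

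In 3 of the 4 mice the leading tumor clone used TRBV26, each time with another TRBJ1 segment and another junction. The mouse 5 clone made up 9.61% of the left and 7.51% of the right tumor reads, against 0.0645% and 0.0305% in the left and right dLN. The mouse 6 clone held 14.6% and 13.0% of the tumor reads and 0.0527% and 0.0415% of the dLN reads. The mouse 7 clone held 8.21% and 7.48% of the tumor reads and 0.0137% and 0.0191% of the dLN reads. The mouse 8 clone held 13.9% and 9.78% of the tumor reads and 0.0125% and 0.0320% of the dLN reads. All 4 clones were thus detected in both dLNs of their mouse. The highest of these dLN frequencies, in the left dLN of mouse 5, had a Wilson 95% interval from 0.0572% to 0.0727%, and the lowest, in the left dLN of mouse 8, one from 0.00948% to 0.0166%. Such intervals cover counting error only, since the reads carry no molecular identifiers. In tumors of other mice, the mouse 7 clone reached 0.00429% and the mouse 5 clone 0.000748%, while those of mice 6 and 8 were not found.

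The leading clones of the dLNs were far smaller. They are shown in the same form, leaving out a set of clones that is described in the following paragraph. No D segment was assigned to the clone of mouse 7.
mouse 5, TRBV5/TRBJ2-5: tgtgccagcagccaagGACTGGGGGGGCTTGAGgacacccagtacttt
mouse 6, TRBV17/TRBJ2-7: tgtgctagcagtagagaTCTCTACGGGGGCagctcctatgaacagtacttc
mouse 7, TRBV20/TRBJ2-2: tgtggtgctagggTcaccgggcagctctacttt
mouse 8, TRBV12-1/TRBJ2-7: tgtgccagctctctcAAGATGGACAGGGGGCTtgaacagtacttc
Their dLN frequencies lay between 0.0636% (right dLN of mouse 7) and 0.231% (left dLN of mouse 8). In the tumors the mouse 5 clone was the most frequent of them, with 1.29% of the left and 0.940% of the right tumor reads, and the mouse 6 clone the least frequent, with 0.00527% and 0.00531%.

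3 libraries stood apart by the clones they shared. A set of 33 clones held 6.75% of the reads of the right dLN of mouse 8, 2.61% of those of the left dLN of mouse 5 and 0.381% of those of fragment 2 of the left tumor of mouse 7, but at most 0.0145% in each of the other 21 CD8+ libraries. The set consisted of the clones of at least 0.01% in both of these dLNs that were at least 10 times rarer in the other dLN of each mouse, and the ratio of their frequencies between the 2 dLNs had a median of 0.391 (range 0.280 to 0.742). The most frequent clone of the set, TRBV19/TRBJ2-4, was the leading dLN clone of both mice, with 1.79% of the reads in the right dLN of mouse 8 and 0.761% in the left dLN of mouse 5, and no read in the other dLN of either mouse (upper limits 0.000767% and 0.000972%).
TRBV19/TRBJ2-4: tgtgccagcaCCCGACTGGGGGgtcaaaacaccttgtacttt
Leaving out these 3 libraries was an alternative chosen after the data were seen. Calls lost under it are given beside the values they touch or, for some features, only as a changed number of calls. The deposited CD8+ libraries held 1243913 to 4840722 reads per tumor fragment and 1016113 to 1663878 reads per dLN. The values below rest on 403278 to 2035380 reads per tumor fragment and 308640 to 534498 per dLN, drawn at random so that each library held 6 times as many reads as sorted cells.

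Values below are means over the left and right sample of a mouse, given as mean ± SD over the 4 mice, so that p-values measure the spread between mice. Differences of usage were tested with limma on log2(percent + 0.1), or log2(percent + 0.01) for V-J pairs, and a feature was called at a Benjamini-Hochberg adjusted p under 0.05. Single values were compared by an exact permutation test over all 70 splits of 8 mouse values, two-sided, for which the smallest p is 0.0286. Of 25 single values, 17 reached this p, and the adjusted p of each of the 17 was 0.0420. When mice are treated as a replicate block, this test cannot go below p = 0.125 and no single value can be called.

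V segment usage by clones differed between tumor and dLN for most segments, but by small amounts. Of 22 TRBV segments with a mean of at least 0.1%, 7 were higher and 13 lower in the tumor (90.9% called), and all but TRBV12-2 and TRBV24 differed by less than 0.35 on the log2 scale. Without the 3 libraries that shared clones, 19 were called, 6 of them higher. TRBV12-2 had the largest difference on this scale, whereas with a pseudocount 10 times lower that of the rare TRBV24 was larger (0.71 against 0.60 for TRBV12-2), as it was by edgeR (0.76 against 0.60). TRBV12-2 made up 12.0%, 12.1%, 12.3% and 12.4% of the tumor clones in mice 5 to 8, against 8.24%, 7.70%, 8.00% and 8.29% of the dLN clones. These values did not overlap, and the increase was 1.51-fold (12.2% ± 0.180 against 8.06% ± 0.271, log2 difference 0.59, SE 0.03, limma adjusted p = 1.67e-09). The TRBV12-2 gene, which has 2 exons, lies at chr6:41118851-41119364 on the plus strand of GRCm38, within the TRB locus.

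TRBV24, which the GRCm38 annotation lists as a V pseudogene, was rare but also higher in the tumor (0.290% ± 0.0424 against 0.173% ± 0.0131 of clones, log2 difference 0.51, limma adjusted p = 2.51e-05). The other V segments that rose by clones were TRBV23, TRBV12-1, TRBV3, TRBV17 and TRBV5. TRBV14 had the largest decrease, with 3.88% ± 0.118 of tumor clones and 4.90% ± 0.0896 of dLN clones (log2 difference -0.33, limma adjusted p = 5.61e-07). TRBV29 fell from 5.72% ± 0.0720 in the dLN to 4.73% ± 0.124 in the tumor, and TRBV13-3 from 6.68% ± 0.171 to 5.79% ± 0.190. The calls of TRBV1 (log2 difference -0.09), TRBV5 (0.10), TRBV20 (-0.09) and TRBV26 (-0.09) by clones were each lost under at least 2 alternatives. Equal depth ended those of TRBV1, TRBV5 and TRBV26. Leaving out mouse 7 ended those of TRBV1, TRBV20 and TRBV26 (adjusted p = 0.0656, 0.0525 and 0.139), leaving out mouse 5 that of TRBV1 (0.114) and leaving out mouse 6 that of TRBV26 (0.0568). TRBV13-1 was not called (log2 difference -0.05, adjusted p = 0.102), except with the mouse as a replicate block (adjusted p = 0.0240).

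**Figure D1:**
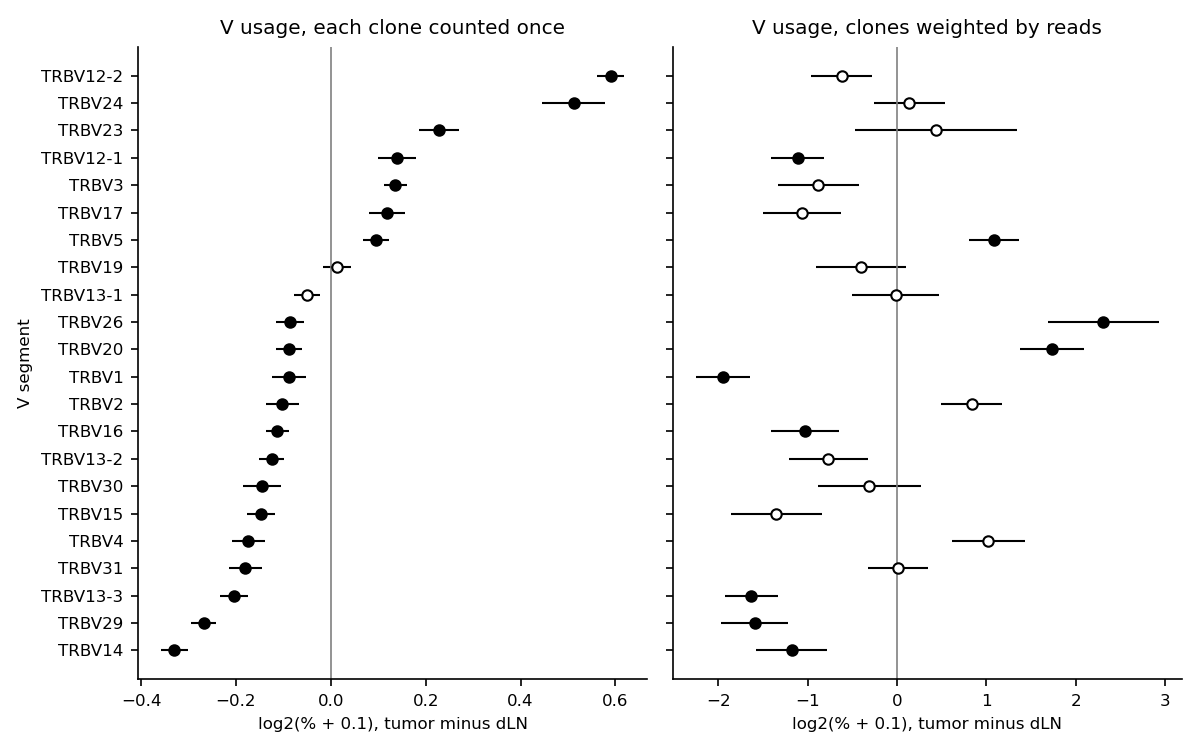
Differences of V segment usage between tumor and dLN on the log2(percent + 0.1) scale, with each clone counted once (left) or clones weighted by reads (right). Points are the limma estimates over 4 mice, bars are ± 1 SE, and filled points have an adjusted p under 0.05. The 2 panels have different axis ranges: by clones the estimates lie between -0.33 and 0.59, by reads between -1.95 and 2.31.

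V segment usage by reads showed larger differences in fewer segments. Of the same 22 segments, 3 were higher and 6 lower in the tumor (40.9% called), and the median log2 difference over all 22 was -0.51, with the percentages of a repertoire summing to 100. By edgeR, 9 were called, 4 of them higher, and without mouse 5 only 3 were called, 1 of them higher. The 3 that rose were TRBV26, TRBV20 and TRBV5. TRBV26 made up 22.8%, 24.7%, 2.96% and 26.2% of the tumor reads in mice 5 to 8, against 2.69%, 2.96%, 2.93% and 2.83% of the dLN reads. The tumors of mouse 7 thus lay at the level of the dLNs, while those of the other 3 mice were well above it. The mean difference was 6.71-fold (19.2% ± 10.9 against 2.85% ± 0.122, log2 difference 2.31, SE 0.62, limma adjusted p = 0.0112). The call was lost when mouse 5, 6 or 8 was left out (adjusted p = 0.0579, 0.0567 and 0.0635) and when rare segments were not filtered (0.0520). Without the 10 most abundant clones of each sample, the log2 difference was 1.35 (adjusted p = 0.00538).

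TRBV20 made up 7.48%, 3.19%, 8.89% and 4.40% of the tumor reads of mice 5 to 8, and between 1.51% and 1.65% of the dLN reads (log2 difference 1.74, SE 0.36, limma adjusted p = 0.00412). Without these 10 clones, TRBV20 was not called (log2 difference 0.86, adjusted p = 0.0876). TRBV5 made up 12.3%, 7.27%, 8.80% and 9.58% of the tumor reads, and between 4.29% and 4.43% of the dLN reads (log2 difference 1.08, SE 0.28, limma adjusted p = 0.0112). Its call was lost without mouse 5 (adjusted p = 0.0951). For both TRBV20 and TRBV5, the tumor value of every mouse was above all dLN values.

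Among the V segments that fell by reads, TRBV1 made up 1.22%, 1.73%, 2.45% and 1.34% of the tumor reads of mice 5 to 8, against 6.69%, 7.22%, 6.59% and 5.85% of the dLN reads. The dLN level was 3.90 times that of the tumor (log2 difference -1.95, SE 0.30, limma adjusted p = 0.00129), and the segment was called under all 17 alternatives. TRBV13-3 fell to 2.22% ± 0.671 from 6.89% ± 0.211 (log2 difference -1.63) and was likewise called under all 17. Without the 10 most abundant clones of each sample, the log2 differences were smaller, at -1.14 for TRBV1 and -0.81 for TRBV13-3. TRBV29 (1.89% ± 1.18 against 5.28% ± 0.163), TRBV12-1 (3.17% ± 0.845 against 6.80% ± 0.434), TRBV14 (2.90% ± 1.26 against 6.07% ± 0.364) and TRBV16 (4.56% ± 2.85 against 8.39% ± 0.215) were the other segments that fell. The TRBV29 call was lost without mouse 5 (adjusted p = 0.0552), and the TRBV14 call without mouse 5, 7 or 8 (0.0816, 0.0746 and 0.0635). TRBV16 was just past the threshold (adjusted p = 0.0493) and was not called with the mouse as a replicate block (0.0539), without mouse 5, 6 or 8 (0.192, 0.159 and 0.143) or without the 3 libraries that shared clones (0.0508). Without the 10 most abundant clones, TRBV14 (log2 difference -0.41 in place of -1.18, adjusted p = 0.320) and TRBV16 (-0.42 in place of -1.03, 0.0815) were not called, while TRBV29 was (-0.79 in place of -1.59, 0.0438).

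**Figure D2:**
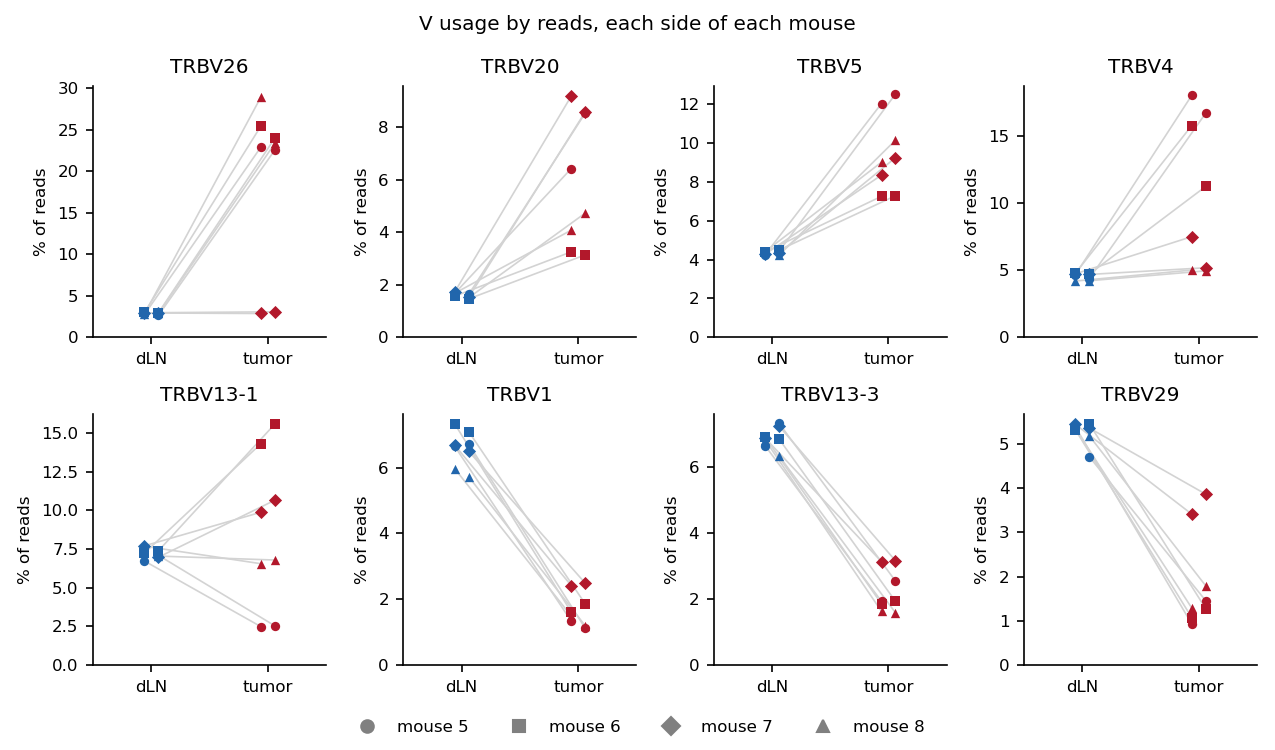
V segment usage by reads (percent of reads, linear axes from 0) on each side of each mouse for 8 V segments. Each symbol is 1 dLN or 1 tumor, the symbol shape marks the mouse, and lines join the dLN and tumor of a side. TRBV26 is near 3% in the tumors of mouse 7 and above 20% in those of the other mice.

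For several V segments the difference by reads did not have the same sign as the difference by clones. Of the 9 segments called by both measures, 6 had the same sign (TRBV1, TRBV13-3, TRBV14, TRBV16 and TRBV29 lower, TRBV5 higher) and 3 had opposite signs. TRBV26 and TRBV20 were higher by reads and slightly lower by clones, and TRBV12-1 was the reverse. TRBV12-2, which was higher by clones, was not called by reads, where it made up 4.35%, 3.97%, 9.73% and 7.39% of the tumor reads and 8.90% to 9.49% of the dLN reads (log2 difference -0.62, adjusted p = 0.145; adjusted p = 0.0488 without mouse 7).

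Usage by reads also varied far more between mice in the tumor than in the dLN. The SD over mice was a median 12.6 times larger in the tumor than in the dLN over the 22 segments by reads, and 1.06 times by clones. TRBV4 ranged from 4.97% (mouse 8) to 17.4% (mouse 5) of the tumor reads and TRBV13-1 from 2.50% (mouse 5) to 15.0% (mouse 6), whereas in the dLN they ranged from 4.19% to 4.73% and from 6.91% to 7.37%. Neither was called by reads (TRBV4: log2 difference 1.02, adjusted p = 0.0556; TRBV13-1: -0.02, adjusted p = 0.977). TRBV4 was called without mouse 8 (adjusted p = 0.0442) and by edgeR's quasi-likelihood test (adjusted p = 0.0319). The effective number of V segments by reads, the number of equally used segments with the same Shannon entropy, was 13.5 ± 2.20 in the tumor and 17.4 ± 0.0306 in the dLN (lower in 4 of 4 mice, exact permutation test, p = 0.0286). It no longer differed significantly when the 10 most abundant clones of each sample were left out (difference -0.339, p = 0.314). By clones it was 17.4 ± 0.0540 and 17.9 ± 0.0637 (p = 0.0286).

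J segment usage by clones differed by at most 0.18 on the log2 scale. Of 12 TRBJ segments, 4 were higher (TRBJ1-6, TRBJ2-1, TRBJ2-2 and TRBJ2-7) and 4 lower (TRBJ1-1, TRBJ1-2, TRBJ1-5 and TRBJ2-5) in the tumor (66.7% called). TRBJ1-2 had the largest difference, with 4.96% ± 0.176 of tumor and 5.63% ± 0.214 of dLN clones (log2 difference -0.18, limma adjusted p = 0.000418), followed by TRBJ1-5 (2.38% ± 0.0632 against 2.64% ± 0.128, log2 difference -0.14) and TRBJ1-6 (3.14% ± 0.0552 against 2.92% ± 0.0912, log2 difference 0.10; not called on the right side alone, adjusted p = 0.100). The mouse TRB locus holds 2 clusters of J segments, each behind its own D segment, and TRBD2 can join only to the TRBJ2 cluster. The TRBJ2 cluster made up 70.2% ± 0.409 of tumor clones and 68.8% ± 0.487 of dLN clones (higher in 4 of 4 mice, exact permutation p = 0.0286, and p = 0.0571 without the 3 libraries that shared clones). TRBD2 was assigned to 48.7% ± 0.445 of tumor and 44.8% ± 0.504 of dLN clones (p = 0.0286).

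By reads, the TRBJ2 cluster was instead lower in the tumor, with 66.3%, 52.2%, 60.1% and 47.4% of the tumor reads of mice 5 to 8 and 70.9% to 72.0% of the dLN reads (lower in 4 of 4 mice, exact permutation p = 0.0286). Of the 12 TRBJ segments, 1 was called higher and 2 lower by reads (25.0% called), whereas the replicate block left 1 segment, which was lower. With all 4 mice, edgeR called 2, 1 of them higher. Without mouse 5 none was called by limma (2 at an unadjusted p under 0.05), and edgeR was not run without a mouse. TRBJ2-4 made up 3.26%, 2.60%, 4.18% and 5.06% of the tumor reads and 8.54% to 9.79% of the dLN reads (log2 difference -1.28, SE 0.24, limma adjusted p = 0.00606; 0.0725 without mouse 5). TRBJ2-2 was lower (3.15% ± 1.14 against 5.42% ± 0.274, limma adjusted p = 0.0432, 0.0878 with the block, and 0.233, 0.164 and 0.111 without mouse 5, 6 and 8), although it was higher by clones. TRBJ1-3 was higher (10.3%, 5.39%, 6.84% and 8.86% of the tumor reads against 4.07% to 4.21% of the dLN reads, log2 difference 0.87, limma adjusted p = 0.0314, 0.0878 with the block, and 0.171, 0.0892 and 0.0947 without mouse 5, 7 and 8). None of these 3 calls was made without the 10 most abundant clones of each sample, where the log2 difference was -0.38 for TRBJ2-4 (adjusted p = 0.196), -0.15 for TRBJ2-2 (in place of -0.82, adjusted p = 0.645) and -0.03 for TRBJ1-3 (adjusted p = 0.943). The difference of the TRBJ2 cluster was then -7.18 percentage points, in place of -14.9.

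The J segments with the largest ranges between mice by reads were not called, although TRBJ1-6 was without the 10 most abundant clones (log2 difference 0.76, adjusted p = 0.0339). TRBJ1-6 made up 2.0%, 19.3%, 2.62% and 8.24% of the tumor reads of mice 5 to 8, and 2.73% to 3.09% of the dLN reads (log2 difference 0.89, adjusted p = 0.345). TRBJ2-3 made up 19.4%, 13.1%, 4.91% and 4.55% of the tumor reads, and 9.09% to 9.68% of the dLN reads (log2 difference -0.09, adjusted p = 0.850). The SD over mice by reads was a median 20.2 times larger in the tumor than in the dLN over the J segments.

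Of 232 pairs with a mean of at least 0.05% by clones, 27 were higher and 61 lower in the tumor (37.9% called). Without the 3 libraries that shared clones, 69 were called, 23 of them higher, and without mouse 6 or 7 the number was 54 or 53. TRBV12-2 was tested with 12 J segments, and all 12 pairs were higher, with log2 differences from 0.22 to 1.05. TRBV12-2/TRBJ2-2 had the largest, with 0.936%, 1.01%, 0.957% and 0.906% of the tumor clones of mice 5 to 8 against 0.490%, 0.424%, 0.446% and 0.453% of the dLN clones (limma adjusted p = 1.22e-06). TRBV12-2/TRBJ1-6 (log2 difference 0.95) and TRBV12-2/TRBJ2-4 (0.78) followed. No other V segment was called higher with more than 5 of its J segments. Among V segments that were lower, TRBV29 was lower with 9 and TRBV14 with 8 of 12 J segments, and neither was called higher with any.

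The 3 pairs with the lowest log2 difference by clones involved V segments other than these. TRBV31/TRBJ1-2 made up 0.0892% ± 0.0140 of tumor and 0.152% ± 0.0228 of dLN clones (log2 difference -0.71, limma adjusted p = 0.00143). TRBV31/TRBJ1-1 (log2 difference -0.51) and TRBV4/TRBJ1-5 (-0.51) followed, and the latter was not called without mouse 6 (adjusted p = 0.0678).

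By reads, 3 of 216 V-J pairs were higher and 122 lower in the tumor (57.9% called; 124 pairs in all without the 3 libraries that shared clones), around a median log2 difference of -1.51 over all pairs tested. TRBV26/TRBJ1-6 had the largest increase, with 0.782%, 17.1%, 0.804% and 7.21% of the tumor reads of mice 5 to 8 against 0.118%, 0.175%, 0.106% and 0.151% of the dLN reads (log2 difference 4.37, SE 0.98, limma adjusted p = 0.00446). It was higher in every mouse, also in mouse 7, where TRBV26 as a whole was at the dLN level. The leading clone of mouse 6, shown above, was 1 of its clones. TRBV20/TRBJ1-2 (0.377%, 2.39%, 0.389% and 1.98% of tumor reads, 0.162% to 0.199% of dLN reads, adjusted p = 0.0153; 0.0672 without mouse 6 and 0.0647 without mouse 8) and TRBV4/TRBJ1-1 (0.807%, 2.32%, 1.21% and 1.37% of tumor reads, 0.296% to 0.420% of dLN reads, adjusted p = 0.00203) were the other 2 that rose. Neither pair was higher by clones. TRBV4/TRBJ1-1 was called lower by clones, opposite to its difference by reads. This call was lost under 5 of 21 alternatives, among them that without the 3 libraries that shared clones (log2 difference -0.18, limma adjusted p = 0.179). TRBV20/TRBJ1-2 was not called by clones, except under 4 of 21 alternatives, where it was lower.

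TRBV14/TRBJ2-4 (log2 difference -2.69), TRBV19/TRBJ2-4 (-2.47) and TRBV13-3/TRBJ2-2 (-2.43) had the lowest log2 differences by reads. TRBV19/TRBJ2-4 made up 0.604%, 0.212%, 0.234% and 1.16% of the dLN reads of mice 5 to 8 and 0.0434% to 0.224% of the tumor reads, and its 2 highest dLN values belonged to the mice whose leading dLN clone was of that pair and of the shared set. Its call was lost without mouse 5 or 8 (adjusted p = 0.0743 and 0.0647) and without the 10 most abundant clones (log2 difference -0.85, adjusted p = 0.143). TRBV14/TRBJ2-4 was called without those clones, at -1.56. All 12 TRBV1 pairs were lower by reads, as were 11 of 12 TRBV13-3 pairs. Of the 12 TRBV12-2 pairs, which were all higher by clones, 7 were lower and 0 higher by reads (median log2 difference -1.15). Of the 58 pairs called by both measures, 43 had the same sign and 15 opposite signs. Most pairs called by each measure were lower (122 of 125 by reads, 61 of 88 by clones). Many equal signs are therefore found even without a link between the measures, which was not tested. The effective number of V-J pairs by reads was 60.3 ± 22.4 in the tumor and 168 ± 1.56 in the dLN (lower in 4 of 4 mice, exact permutation p = 0.0286).

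**Figure D3:**
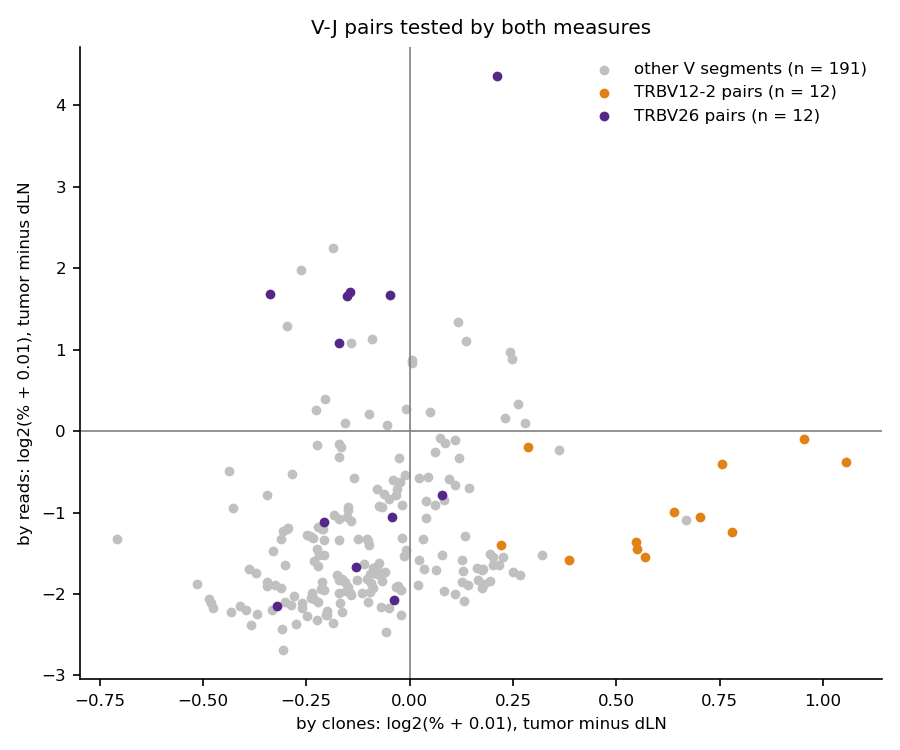
Each point is 1 of the 215 V-J pairs tested by both measures, with its tumor minus dLN difference on the log2(percent + 0.01) scale by clones on the x axis and by reads on the y axis, estimated over 4 mice. The 12 TRBV12-2 pairs all lie right of 0 by clones, and TRBV26/TRBJ1-6 is the highest point by reads (4.37).

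CDR3s were longer in the tumor when each clone was counted once. Length is given in residues, including the first cysteine and the last residue of the CDR3. The mean length by clones was 14.04, 14.06, 14.05 and 14.07 residues in the tumors of mice 5 to 8 and 13.90, 13.91, 13.92 and 13.96 in the dLNs. The values of the tissues did not overlap, and the difference was 0.128 residues (14.05 ± 0.0133 against 13.92 ± 0.0243, exact permutation p = 0.0286). Of 10 lengths tested, 5 were higher and 4 lower in the tumor (90.0% called): lengths of 14 to 18 residues rose and lengths of 10 to 13 fell. A length of 17 residues was found in 2.8% ± 0.0363 of tumor and 2.25% ± 0.0502 of dLN clones (log2 difference 0.30, limma adjusted p = 2.68e-06), and a length of 12 in 8.68% ± 0.172 and 10.6% ± 0.210 (log2 difference -0.28, adjusted p = 5.17e-06). Lengths of 18 (log2 difference 0.28), 16 (0.16) and 15 (0.08) were also higher, and lengths of 11 (-0.24), 10 (-0.17) and 13 (-0.07) lower. The call at 10 residues was lost on the right side alone (adjusted p = 0.0703). The small difference at 14 residues (0.02) was lost under many alternatives, including the replicate block (adjusted p = 0.0968), the removal of the 3 libraries that shared clones (0.0656) and the removal of mouse 5, 6 or 7 (0.0990, 0.142 and 0.214). The median length did not differ.

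The difference in length was seen within V segments, as 21 of 22 had a longer mean CDR3 in the tumor, 17 of them without overlap between the tissues (no segment was shorter without overlap), with a median difference of 0.0890 residues. The bases inserted at the V-D and D-J junctions, where a D segment was assigned, numbered 2.93 ± 0.0605 per tumor clone and 2.78 ± 0.0588 per dLN clone (higher in 4 of 4 mice, exact permutation p = 0.0286). This p rose to 0.0571 at equal depth and without the 3 libraries that shared clones.

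By reads, the mean CDR3 length did not differ significantly between tumor and dLN (13.6, 13.9, 13.9 and 14.1 residues in the tumors of mice 5 to 8 against 13.9 in each dLN, exact permutation p = 0.600). Of the 10 lengths, 1 was higher and 2 lower (30.0% called). With the replicate block 1 was called, which was lower, and without the 10 most abundant clones 3 were, 2 of them higher. Leaving out mouse 6 or 8 left 1 length called, and 5 lengths were called without mouse 7. Lengths of 18 (0.127% ± 0.0481 against 0.409% ± 0.0315, log2 difference -1.19, limma adjusted p = 0.00108) and 16 residues (log2 difference -0.93, adjusted p = 0.0450; 0.0633 with the block and 0.145, 0.0780 and 0.0966 without mouse 5, 6 and 8) fell and a length of 10 rose (log2 difference 0.80, adjusted p = 0.0182; 0.0633 with the block and 0.0791, 0.0780 and 0.0508 without mouse 5, 6 and 8). Without the 10 most abundant clones, the log2 difference was -0.10 at 16 residues (adjusted p = 0.776), -0.68 at 18 and 1.30 at 10. Each of these 3 lengths was called by clones in the opposite direction.

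The residues in the middle of the CDR3 also differed by clones. The first 4 and last 4 residues, which are mostly set by the V and J segments, were left out. Of 20 residues, 9 were higher and 9 lower in the tumor (90.0% called). Cysteine had the largest difference. It made up 0.300%, 0.340%, 0.353% and 0.315% of the inner residues of tumor clones in mice 5 to 8, against 0.0477%, 0.0436%, 0.0397% and 0.0350% of those of dLN clones. The tumor level was thus 7.88 times that of the dLN (log2 difference 1.59 with the pseudocount of 0.1, limma adjusted p = 2.97e-09). With a pseudocount 10 times lower the log2 difference was 2.71, and with one 10 times higher 0.35. Cysteine can form disulfide bonds and is usually rare in the middle of a CDR3.

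Tryptophan, a large aromatic residue, rose from 2.83% ± 0.0281 in the dLN to 3.8% ± 0.0678 in the tumor (log2 difference 0.41, adjusted p = 7.36e-09). Histidine (log2 difference 0.26), the aliphatic residues valine (0.15), isoleucine (0.14) and leucine (0.08), the aromatic tyrosine (0.13) and phenylalanine (0.06), and proline (0.08) rose as well. The residues that fell were mostly charged or polar: lysine (log2 difference -0.25), glutamate (-0.10), aspartate (-0.09), threonine (-0.09), serine (-0.09), glutamine (-0.06) and asparagine (-0.05), with the small residues glycine (-0.03) and alanine (-0.02). The alanine call was lost under 5 alternatives, among them those without mouse 5 or 7 (adjusted p = 0.0515 and 0.0952). Arginine and methionine were not called. Mean hydropathy of the inner residues on the Kyte-Doolittle scale, on which higher values are more hydrophobic, was -0.963 ± 0.00694 in the tumor and -1.04 ± 0.00504 in the dLN (higher in 4 of 4 mice, exact permutation p = 0.0286). The inner net charge was -0.401 ± 0.010 and -0.438 ± 0.00317 (p = 0.0286).

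**Figure D4:**
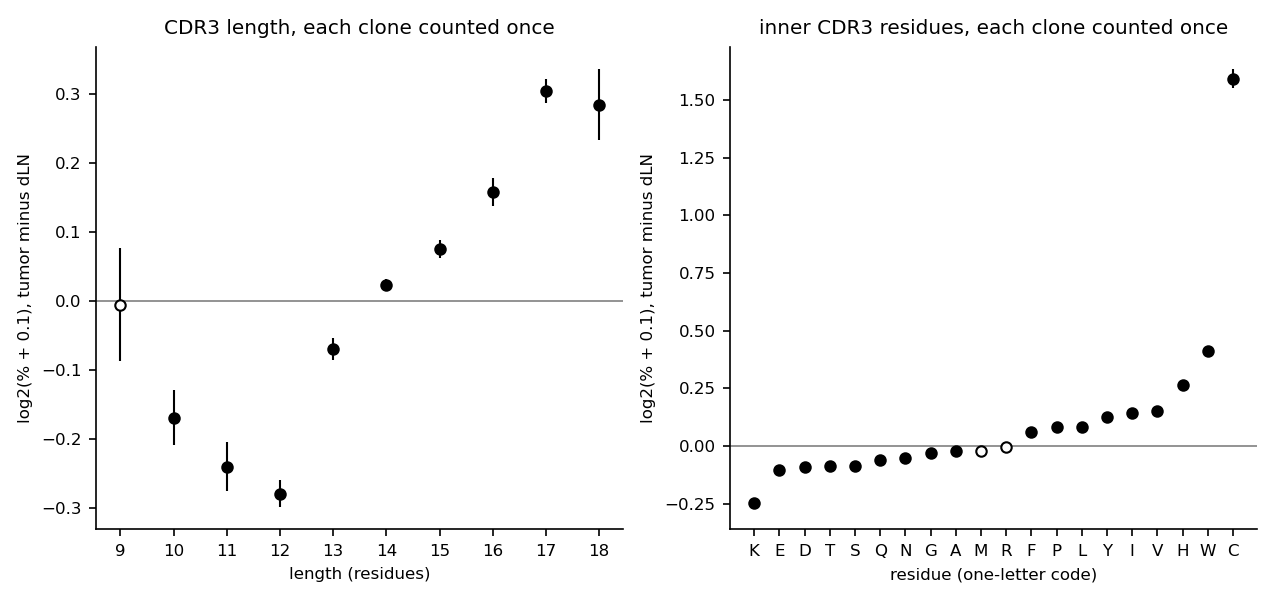
Tumor minus dLN differences on the log2(percent + 0.1) scale for each CDR3 length (left) and each inner CDR3 residue in one-letter code (right), with each clone counted once. Points are limma estimates over 4 mice, bars are ± 1 SE, and filled points have an adjusted p under 0.05. Lengths of 14 to 18 lie above 0, and cysteine (1.59) and tryptophan (0.41) are the highest residues.

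At least 1 inner cysteine was found in 1.79%, 2.05%, 2.12% and 1.91% of the tumor clones of mice 5 to 8 and in 0.281%, 0.255%, 0.233% and 0.209% of the dLN clones, and at least 1 inner tryptophan in 22.2% ± 0.428 and 16.4% ± 0.20. An inner cysteine was more frequent in the tumor within all 22 V segments, for 21 of them without overlap between the tissues. The most abundant tumor clone with an inner cysteine in each mouse is printed with that codon in capitals.
mouse 5, TRBV14/TRBJ2-5: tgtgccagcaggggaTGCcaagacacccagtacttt
mouse 6, TRBV17/TRBJ2-7: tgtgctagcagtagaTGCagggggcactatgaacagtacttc
mouse 7, TRBV17/TRBJ2-1: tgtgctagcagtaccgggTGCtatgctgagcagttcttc
mouse 8, TRBV1/TRBJ1-2: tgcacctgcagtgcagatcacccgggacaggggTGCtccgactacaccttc
Each was found in both tumors of its mouse, at frequencies between 0.00108% and 0.00496%, and had no read in the dLNs. All of the 767 to 3172 tumor clones with an inner cysteine of a mouse were therefore small.

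Weighted by reads, these residue differences were mostly not called. Of the 19 residues with a mean of at least 0.1% by reads, histidine was called (5.26% called), and it was lower in the tumor (0.315% ± 0.127 against 0.790% ± 0.0217, log2 difference -1.15, limma adjusted p = 0.00693), opposite to its difference by clones. Its call was lost without mouse 5, 6 or 8 (adjusted p = 0.0986, 0.0613 and 0.0841) and without the 10 most abundant clones (log2 difference -0.48, adjusted p = 0.132). Without mouse 5, 6 or 8, no residue was called by limma (2, 1 and 2 at an unadjusted p under 0.05), whereas 5 residues were called without mouse 7, 1 of them higher. Cysteine was under this minimum by reads, with 0.0526%, 0.0546%, 0.112% and 0.0434% of the inner residues in the tumors of mice 5 to 8 and 0.0355%, 0.0382%, 0.0301% and 0.0232% in the dLNs. These values did not overlap, but cysteine was not called when the minimum was dropped (log2 difference 0.31, limma adjusted p = 0.177). Clones with an inner cysteine held 0.294%, 0.319%, 0.656% and 0.262% of the tumor reads of mice 5 to 8, and 0.186% ± 0.0386 of the dLN reads. Clones with an inner tryptophan held 9.17% ± 4.96 of the tumor reads and 16.3% ± 0.265 of the dLN reads. Hydropathy by reads did not differ significantly (exact permutation p = 0.943). Net charge by reads was less negative in the tumor in 4 of 4 mice (p = 0.0286), but not significantly without the 10 most abundant clones (p = 0.143).

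Clones reached larger sizes in the tumor than in the dLN. Clonality, 1 minus the Pielou evenness, is 0 when all clones are equally frequent. It was 0.498, 0.494, 0.362 and 0.493 in the tumors of mice 5 to 8 and 0.0412, 0.0372, 0.0369 and 0.0504 in the dLNs (0.462 ± 0.0667 against 0.0414 ± 0.00631, exact permutation p = 0.0286). The tumors of mouse 7 were the least clonal, but were still far from any dLN. The 10 most abundant clones held 55.8%, 44.7%, 32.4% and 44.9% of the tumor reads, and 1.49%, 0.759%, 0.767% and 3.21% of the dLN reads. The highest of these dLN values were those of mice 5 and 8, whose dLNs held the shared set of clones. Clones above 1% held 54.7% ± 13.5 of the tumor reads and 0.351% ± 0.701 of the dLN reads, where the only such clones were in the right dLN of mouse 8 (2.80%). This is 1 of the 3 libraries that shared clones, and without those libraries no dLN had a clone above 1% and the difference was 54.8 percentage points. In contrast, clones under 0.01% held 22.2% ± 9.12 of the tumor reads and 87.1% ± 2.79 of the dLN reads.

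The number of distinct clones in 300000 reads per tumor or dLN did not differ significantly (27167 ± 13435 in the tumor and 34865 ± 2549 in the dLN, exact permutation p = 0.314). It ranged from 16833 in mouse 5 to 46922 in mouse 7 for the tumors, and mouse 7 was also the only mouse with more clones in the tumor than in the dLN. Reads per sorted cell were then unequal, since the libraries held different numbers of cells. With 6 reads per sorted cell the difference (tumor minus dLN) had the other sign, at 7811 clones in place of -7698, and was not significant either (exact permutation p = 0.714).

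The features of tumor clones changed with clone size. A tumor held 73.0 ± 14.2 clones of 0.1% or more (range over mice 55.0 to 86.0), which together held 73.3% of the reads. Compared with all other clones of the same tumors, these expanded clones had shorter CDR3s (13.84 ± 0.0680 against 14.05 ± 0.0132 residues, lower in 4 of 4 mice, exact permutation p = 0.0286) and fewer inserted bases (2.76 ± 0.100 against 2.93 ± 0.0608, p = 0.0286), while hydropathy did not differ significantly (p = 0.371). With a minimum of 1% for an expanded clone, the difference in length was -0.400 (p = 0.143) and that in inserted bases -0.0195 (p = 0.943).

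TRBV26 made up 12.1% of the tumor clones of 0.1% or more, and its share was 5.33%, 2.64% and 2.47% in the classes of 0.01% to 0.1%, 0.001% to 0.01% and under 0.001%. TRBV5 (12.7%) and TRBV4 (10.3%) were also common among the tumor clones of 0.1% or more, against 5.09% and 3.94% of those under 0.001%. TRBV12-2 instead was found in 4.72% of the largest class, 8.76% and 17.1% of the following classes and 11.4% of the smallest. In the dLN, TRBV12-2 was most common between 0.01% and 0.1% (12.2% of clones). An inner cysteine was found in 0 of 1081 tumor clones of 0.01% or more, with a clone of both tumors of a mouse counted once, which allows a share of up to 0.278% by counting error alone. Of the dLN clones from 0.01% to 0.1%, 0.0818%, 0.132%, 0.0919% and 0.0% had an inner cysteine in mice 5 to 8, all under that limit. In the class from 0.001% to 0.01% the share with an inner cysteine was 1.52% in the tumor and 0.217% in the dLN, and in the class under 0.001% it was 2.04% and 0.322%. These class values are descriptions, and the trends over classes were not tested.

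**Figure D5:**
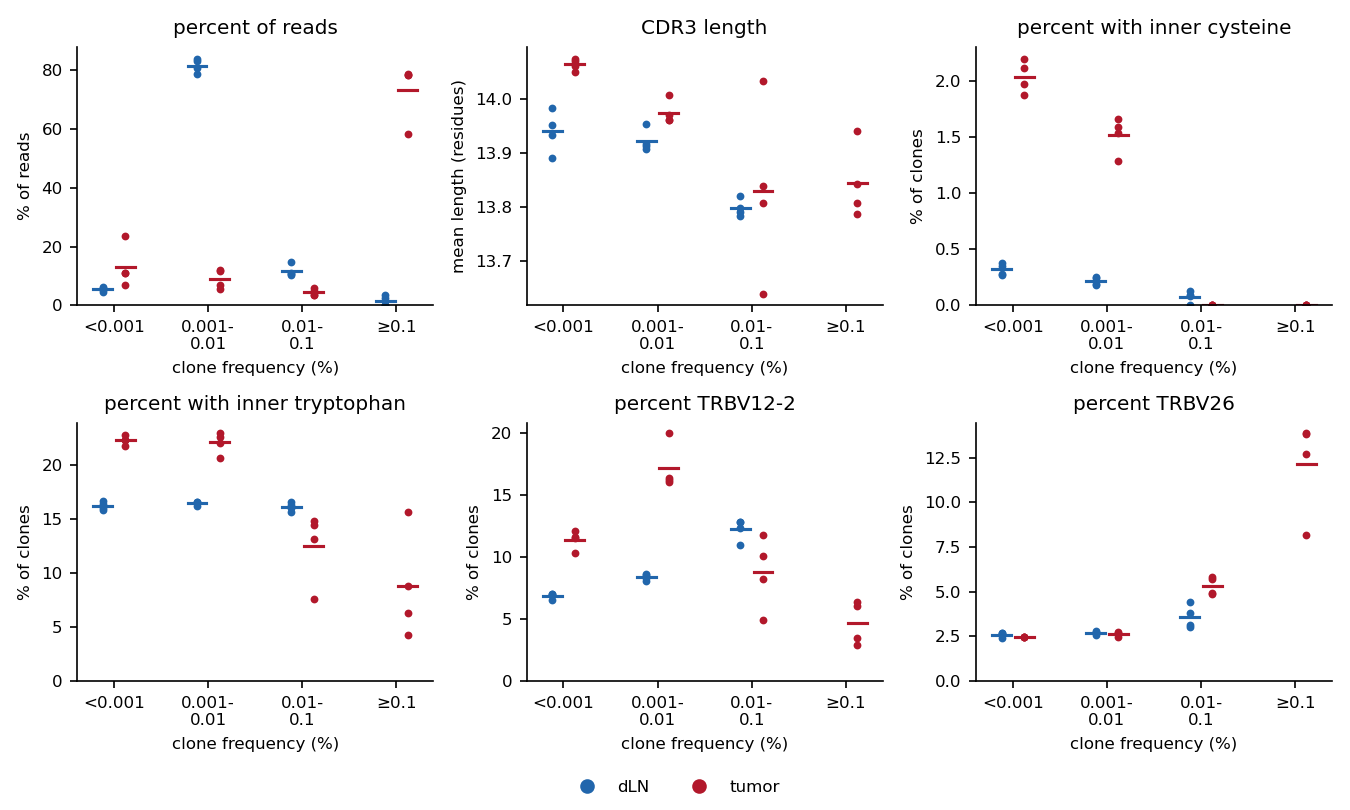
Features of tumor and dLN clones in 4 classes of clone frequency (percent of reads of the repertoire, x axis). Points are mice, bars are means, and dLN clones of 0.1% or more are drawn only in the panel of reads, since there were few of them. Clones of 0.1% or more hold 73.3% of the tumor reads, and the share of TRBV26 is higher among them than in the smaller tumor classes. Among tumor clones, inner cysteine is found only in the classes under 0.01%.

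Clones found in both tissues of a mouse were compared with those found in 1 tissue. On average 3412 of the 43944 clones of a tumor were also found in the dLNs of the mouse, and they held 71.8% of the tumor reads. They had a mean length of 13.61 residues against 14.09 for the other tumor clones, 1.75 against 3.03 inserted bases, and an inner cysteine in 0.281% against 2.12%. The dLN clones not found in the tumors had a mean length of 13.96 residues and an inner cysteine in 0.243%. The chance of finding a clone again also depends on its frequency and on depth, whose part in these differences was not tested. TRBV12-2 made up 13.3% of the tumor clones found in the dLNs and 12.1% of the others.

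Whether segment usage in a tumor was tied to the dLN of its own mouse was asked by the V usage distance, the sum of absolute differences divided by 2, in percentage points. By reads, tumors were 39.8 ± 13.5 points from the dLNs of their own mouse and 40.3 ± 12.0 from those of other mice (exact permutation test over 24 pairings, one-sided, p = 0.0417, the smallest it allows). This small difference of -0.499 points was lost with the reads as deposited, with another seed and without the 3 libraries that shared clones (p = 0.0833, 0.0833 and 0.167). By clones the distances were 6.48 ± 0.469 and 6.53 ± 0.527 points (p = 0.0833). The tumors of different mice were 32.6 points apart by reads and the dLNs 2.71, while by clones both were close to each other, at 1.57 and 1.75 points.

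The same contrast in the CD4+ T cells of these mice served as a comparison, and the tumor minus dLN difference of CD8+ was tested against that of CD4+ T cells with limma. This test took the CD8+ and CD4+ differences of a mouse as independent values. It was not run with the mouse as a replicate block. CD4+ cells of the dLN had passed the same CD44 gate. By clones, 15 of 22 V segments (68.2%) and 9 of 12 J segments (75.0%) differed between the subsets, and 15 and 8 without the 3 libraries that shared clones. The log2 difference of TRBV12-2 was 0.59 for CD8+ and -0.13 for CD4+ T cells, and the difference between the subsets was 0.72 (SE 0.06, adjusted p = 1.11e-07). That of TRBV29 was -0.27 for CD8+ and 1.60 for CD4+ T cells, a difference of -1.86 (adjusted p = 5.02e-11). For TRBV24 the values were 0.51 and 0.53, and the difference between the subsets was -0.02 (SE 0.09, adjusted p = 0.815).

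By reads, 11 of 22 V segments (50.0%) and 1 of 12 J segments (8.33%) differed between the subsets, and 9 and 1 without the 3 libraries. The difference was 2.33 for TRBV26 (adjusted p = 0.0149), 1.82 for TRBV5 (0.000895), 1.45 for TRBV20 (0.0120) and -2.24 for TRBV1 (0.000487). Without mouse 5 the number of V segments by reads fell to 3, and without mouse 8 to 6, while that of J segments was 2 without mouse 6 or 7 and 3 without mouse 8. CDR3 features of CD4+ clones gave values in the same order for the tissues, at other levels. Their mean length was 13.90 ± 0.0336 residues in the tumor and 13.79 ± 0.0251 in the dLN. An inner cysteine was found in 0.198% ± 0.0536 and 0.0814% ± 0.0140 of CD4+ clones, and an inner tryptophan in 13.0% ± 0.336 and 11.8% ± 0.339. The difference of these CDR3 features between the subsets was not tested.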

How the data were processed

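TCRβ libraries of sorted CD8+ T cells were sequenced without molecular identifiers. After trimming and quality filtering (Cutadapt, version 3.2 in the submitters' processing notes, and PRINSEQ), the authors used MiXCR to align reads to IMGT mouse segments and to build error-corrected productive clones, which were then handled with VDJtools. Each deposited table gives a read count per clone and a fraction, which is that count over the library's total.

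Deposited counts were those before down-sampling (1016113 to 4840722 reads per CD8+ library), although the tests had been planned for down-sampled reads. Reads were therefore drawn at random, without replacement, to 6 per sorted cell. Clones had the same V, J and CDR3 nucleotides. Fragment frequencies were averaged per tumor and, for counts by clones, their clones united. The mean of left and right gave 1 value per mouse and tissue. Inner residues leave out 4 at each end, and inserted bases are those between V and D and between D and J in clones with a D. The upper limit for a clone with no read was 3 reads of the library's total. The base at the deposited V end was the most common base of its segment at that position in 99.99% of clones, so that printed junctions begin after it. No pair of libraries within a group was identical.

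Features with a mean of at least 0.1% (0.05% for V-J pairs) were tested with limma 3.58.1 in R 4.3.3 (log2 of percent plus 0.1, or 0.01 for V-J pairs). Single values were tested by exact permutation over 70 splits, or 16 sign changes with the block, and tumor and dLN of own and other mice over 24 pairings, with scipy 1.17.1, numpy 2.4.6 and pandas 2.3.3 in Python 3.11.15. Figures were drawn with matplotlib 3.10.9. These procedures were tested on simulated data. Alternatives were the deposited reads, another seed, read minimums of 2 and 6, clones by amino acids, equal depth (150000 reads per tumor fragment and 300000 per dLN), removal of clones 1 nucleotide from, or more frequent in, another, removal of the 10 most abundant clones, summed fragments, each side, pseudocounts 10 times lower or higher, no filter, linear percent, 3 residues left out, the Gini coefficient, other limits for expanded clones, edgeR 4.0.16, the replicate block, each mouse left out and, added later, 3 libraries left out.

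Tumor and dLN with the same number in the sample labels come from the same mouse, which is where the pairing comes from. The deviations of a mouse's tumor and dLN from the tissue means correlated with r from -0.116 to 0.431 over V segments by clones and from 0.00437 to 0.552 by reads.

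Named segments were the 3 with the largest difference by clones and by reads, those called by both with the same sign, and the 3 (V) or 2 (J) with the largest range between mice. Named V-J pairs were the 3 highest and 3 lowest by each measure, and named lengths and residues those called. Named clones were the leading tumor and dLN clone of each mouse. The dLN clones outside the shared set, the clones with an inner cysteine and the shared set itself were chosen after their values were seen, as was TRBV12-1. Other segments are named only as called. The members, lists and rules were chosen with earlier results of these data known. Segment positions are those of the GRCm38 annotation.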

Additional observations from a re-analysis of the deposited data

Results flagged for a closer look

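Among 120 groups of 4 mouse values, 12 held a mouse far from the others of its group by Dixon's criterion, which chance alone gives in about 1 in 20 groups. In the tumors of mouse 7, TRBV26 took 2.96% of reads against 22.8% to 26.2% in the other mice, TRBV16 took 8.81% against 2.94% to 3.47%, and TRBV29 took 3.64% against 1.17% to 1.54%. The same tumors had an effective number of V segments by reads of 16.8, against 12.0 to 12.8, and a clonality of 0.362, against 0.493 to 0.498. In the tumors of mouse 8, TRBJ1-5 took 12.6% of reads against 0.424% to 1.36%. In the tumors of mouse 5, the TRBJ2 share by clones was 69.6% against 70.3% to 70.4%, and TRBJ2-4 by clones was 8.05% against 8.37% to 8.41%. In the dLNs of mouse 8, clones above 1% held 1.40% of reads and none in the other mice (all of it in the right dLN, with 2.80%, which is 1 of the 3 libraries that shared clones), the mean CDR3 length by reads was 13.92 residues against 13.89 in each of the others, and TRBJ2-3 by clones was 9.02% against 8.43% to 8.46%. In the dLNs of mouse 5, TRBV13-1 took 6.91% of reads against 7.32% to 7.37%.

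Of 38 tests that set the tumor minus dLN difference of CD8+ T cells against that of CD4+ T cells for named segments, 20 differed (limma, adjusted p under 0.05). The differences below are CD8+ minus CD4+ on the log2 scale, followed by the CD8+ and CD4+ values. By clones, they were 0.72 for TRBV12-2 (0.59 and -0.13), -0.17 for TRBV1 (-0.09 and 0.08), -1.86 for TRBV29 (-0.27 and 1.60), 0.56 for TRBV5 (0.10 and -0.46), -0.24 for TRBV13-1 (-0.05 and 0.19) and 0.25 for TRBV4 (-0.17 and -0.43). By reads, they were 2.33 for TRBV26 (2.31 and -0.02), -2.24 for TRBV1 (-1.95 and 0.30), 1.45 for TRBV20 (1.74 and 0.29), -1.16 for TRBV13-3 (-1.63 and -0.47), -1.10 for TRBV16 (-1.03 and 0.07), -2.16 for TRBV29 (-1.59 and 0.57), 1.82 for TRBV5 (1.08 and -0.74) and 1.25 for TRBV4 (1.02 and -0.23).

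For J segments by clones, they were -0.38 for TRBJ1-2 (-0.18 and 0.20), -0.38 for TRBJ1-5 (-0.14 and 0.24), 0.23 for TRBJ1-6 (0.10 and -0.13), 0.21 for TRBJ2-2 (0.09 and -0.12) and 0.12 for TRBJ2-3 (-0.03 and -0.15). By reads, TRBJ2-4 differed by -1.46 (-1.28 and 0.17).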

How the results depend on the processing

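Of 655 values of whole comparisons recomputed under the alternatives, 607 were counted as unchanged, as were 2021 of 2150 values of single features. A called value was then still called with the same direction, an uncalled value was still not called, and a count stayed within 1.5 times. The 607 also include single values with the replicate block or without 1 mouse, where exact tests cannot reach 0.05. Where a value changed, the cause was not tested. Pairing by animal, with mice as a replicate block, gave 1 J segment and 1 CDR3 length called by reads, as did limma on linear percent. No other count of calls between tumor and dLN moved by more than 1.5 times. The test of CD8+ against CD4+ T cells was not run with the block. Leaving out 1 mouse at a time, the number called by reads ranged from 3 to 10 for V segments, 0 to 3 for J segments, 1 to 5 for lengths and 0 to 5 for residues, and from 53 to 74 for V-J pairs by clones. The number that differed between CD8+ and CD4+ T cells by reads ranged from 3 to 9 for V and from 1 to 3 for J segments. The left side alone gave 54 V-J pairs by clones and 5 J segments by clones that differed between CD8+ and CD4+ T cells. Without the 10 most abundant clones, 0 residues were called by reads (limma, 4 at an unadjusted p under 0.05; edgeR was not run on residues), the log2 difference of TRBJ1-3 by reads reversed to -0.030, and the differences were -0.339 for the effective number of V segments by reads (p = 0.314), 0.0981 for net charge by reads (p = 0.143) and -6.55 for the TRBD2 share by reads (p = 0.0286, exact permutation).

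By exact permutation, the difference in inserted bases by clones had p = 0.0571 with a minimum of 6 reads (0.130), clones by amino acids (0.158), equal depth (0.109), 3 libraries left out (0.135) and the left side alone (0.165). The same p was found for the TRBJ2 share by clones without the 3 libraries (1.32) and on the left side (1.12), and for net charge by reads on the right side (0.193). The median CDR3 length by clones differed by 0.0. Values that became significant (p = 0.0286) were the SD of length by clones at 6 reads or more (-0.0104), the TRBD2 share by reads on the right side (-10.2) and the hydropathy of clones expanded to 0.01% (-0.0822). Clones expanded to 1% differed from the others by -0.400 residues and -0.0195 inserted bases, neither significantly. Clones expanded to 0.1% differed by -0.184 inserted bases on the left side alone (p = 0.0857, exact permutation). The own minus other mouse distance by reads lost its call with deposited reads (-0.498), another seed (-0.477), without the top 10 clones (-0.000297), without the 3 libraries (-0.194) and on the left (-0.225) or right side alone (-0.852), and by clones it gained one at 2 reads or more (-0.0519). With 1 mouse left out, exact tests cannot reach 0.05, so that single values were then recomputed without a test. The number of mice (4) and the CD44 gate limit every comparison, and tumor frequencies by reads depend on few large clones.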
